A study of Mus musculus with 92 samples.

Results

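The Arp2/3 complex nucleates branched actin filaments, and the 9 genes that encode its subunits were followed through single blastomeres of mouse 8-cell embryos. They were selected by name from the deposited count table: Actr2 and Actr3, which encode the actin-related subunits Arp2 and Arp3, and Arpc1a, Arpc1b, Arpc2, Arpc3, Arpc4, Arpc5 and Arpc5l, which encode the other subunits and their paralogs. All 9 had a row among the 7886 genes of the table. The set was chosen by a result of the same libraries, because Arpc1b was among the genes with the smallest p in Let7e against Let7d. That contrast is therefore described below without a test, and it supports nothing said of the other contrasts.

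Zygotes of C57BL/6N wild-type mice had been microinjected with material labelled Let7d, Let7e or mi699a-5p or with a negative control (NC), kept to the 8-cell stage and taken apart into blastomeres. The sample titles of all groups carry the tag IVF, the usual short form of in vitro fertilization. The series describes the let-7 material as mimics of the 5p microRNAs. It is not given what the negative control was, how much was injected, or how much reached each blastomere. Libraries were made with Smart-seq2, which amplifies full-length cDNA of one cell and adds no molecular identifiers, so counts are reads that include amplification copies. The labels describe 92 cells. After 10 cells that were not analysed here and 1 pair of columns that differed by about as much as sampling noise (chi-square of 1.05 per gene, against 28.7 for the next closest pair) and was counted as 1 cell, 81 cells from 14 mouse ids remained. The 22 NC cells came from 3 mouse ids and the 18 Let7d cells from 3, while Let7e gave 20 cells and mi699a-5p 21 cells, each from 4 mouse ids. What a mouse id stands for, an embryo, a dam or a donor, is not stated. The p-values below measure the spread between these mouse ids, which may be technical. No mouse id occurred in more than 1 group, so effects of handling the groups apart and effects of what was injected cannot be told apart.

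The Arp2/3 complex has 7 subunits. Arp2 and Arp3 resemble actin and form the start of the daughter filament, ARPC2 and ARPC4 form the core that grips the mother filament, and ARPC1, ARPC3 and ARPC5 complete the assembly. The complex is inactive until WASP-family proteins, acting downstream of small GTPases, bind it together with an actin monomer. ARPC1 and ARPC5 each exist in alternative versions (ARPC1A or ARPC1B, ARPC5 or ARPC5L), so a cell can hold complexes of different composition. In the mouse preimplantation embryo, cortical actin is known for its part in blastomere polarity and in compaction, the flattening of blastomeres against each other that begins at the 8-cell stage.

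The mature let-7 sequences are shown because the injected material is named after them and because the contrast that chose Arpc1b set one against the other. They are credited to RefSeq (GRCm38.p6), with the seed, bases 2 to 8 from the 5′ end, in capitals.
mmu-let-7d-5p: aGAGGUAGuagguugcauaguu
mmu-let-7e-5p: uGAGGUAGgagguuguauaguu
Both are 22 bases long and share the seed GAGGUAG. With let-7d first and positions counted from the 5′ end, they differ by A1U, U9G and C16U, all outside the seed. Let-7d-5p lies at chr13:48536078-48536099 on the minus strand and let-7e-5p at chr17:17830366-17830387 on the plus strand. The sequence table used here gave no match to mi699a-5p, so no sequence is printed for it. The complement of the 7-base seed, CTACCTC, was searched on the sense strand of the annotated principal 3′ UTR of each subunit gene (GENCODE M21), and 0 of 9 held it, against 732 of 7577 genes of the table (9.7%). The shorter TACCTC, which is contained in CTACCTC, was in 1 of 9, against 1841 of 7577 (24.3%). That match lies in the 3′ UTR of Actr2 at chr11:20063127-20063156 on the minus strand, shown with its motif in capitals.
Actr2 3′ UTR: gttaagtatttttgcctgtttTACCTCaat
A match is a description of letters, not of a site in use. None of the 3′ UTRs searched for any subunit gene, Arpc1b included, held the 7-base motif CTACCTC. For Arpc1b these came from 3 of 11 annotated transcripts, as those without a coding part or with an incomplete end were left out. The Actr2 match is followed by an A, and TACCTCA is the complement of let-7e bases 1 to 7. That form was not counted over the genes.

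Depth was 1575609 to 4950404 reads per cell, with a median of 2736612, and 6329464 to 24037593 reads per mouse id. Mean reads per cell were 2991646 to 4071285 in the Let7d mouse ids and 2916582 to 3164732 in those of Let7e, both above the 2225246 to 2732434 of NC and the 1936975 to 2437853 of mi699a-5p. Of 12 blastomere and oocyte markers, 9 had a row, with a summed level of 6516 to 7288 CPM (each gene's reads scaled to a common library total, with TMM factors) in NC, 5258 to 6848 CPM in Let7d, 7000 to 8234 CPM in Let7e and 6597 to 10550 CPM in mi699a-5p. Markers of red cells (0 of 5), cumulus and granulosa cells (0 of 8), sperm (0 of 5) and skin or stroma (0 of 6) had no row in the table. The table had been filtered on CPM before deposit by a rule not given in the sources used here. A missing row therefore does not show that a gene had no reads. Of 10 leukocyte markers only Coro1a had one, at 8.28 to 37.8 CPM over all mouse ids. Y-linked transcripts (3 of 4 genes measured) summed to 62.9 to 160 CPM in NC, 0.182 to 144 CPM in Let7d, 45.5 to 160 CPM in Let7e and 0.235 to 175 CPM in mi699a-5p, so the groups were not balanced in embryo sex. Xist marks female cells. With Y-linked sums in brackets, scaled slightly differently, it was at 422 (0.694) and 541 (0.191) CPM in Let7d replicates 2 and 3. It was at 0.0 (148) CPM in Let7d replicate 1 and at 0.0 (154) and 1.498 (139.9) CPM in NC replicates 1 and 3. Both signals occurred in NC replicate 2 at 110 (65.9), Let7e replicate 1 at 355 (43.8) and mi699a-5p replicate 4 at 327 (15.4) CPM. Whether those mouse ids mix sexes was not tested.

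Per length, the most abundant of the subunit transcripts was that of Arpc2, part of the core of the complex. In NC it reached 165 ± 14.3 CPM per kb of the principal transcript (SD, n = 3), higher than 93.2% of all genes left in the filtered table. Arpc1b followed at 76.0 ± 18.5 CPM per kb, Arpc3 at 72.1 ± 10.2, Arpc1a at 71.9 ± 13.7, Actr2 at 61.8 ± 6.94, Arpc5l at 61.8 ± 11.4, Arpc5 at 50.5 ± 11.3 and Arpc4 at 35.1 ± 7.64 CPM per kb. Actr3, which encodes the partner of Arp2 in the complex, had the lowest level at 17.3 ± 4.56 CPM per kb, higher than 54.9% of the genes in that table. Between neighbours in this order the NC mouse ids overlapped in 6 of 8 steps. Only the step from Arpc2 to Arpc1b and the step from Arpc4 to Actr3 were free of overlap. The order in the middle depends on the gene model: with the union of all annotated exons as length, Arpc3 moved from place 3 to place 7 and Arpc5l from place 6 to place 8, while Arpc2, Arpc1b and Actr3 kept places 1, 2 and 9. Processed pseudogenes resemble several of these genes, such as Gm8822 for Actr3 (98.8% identity over 2348 bases) and Gm5637 for Arpc1b (96.5% over 1131 bases). None of those found has a row in the table, and how reads shared with them were counted is not given in the sources used here.

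**Figure D1:**
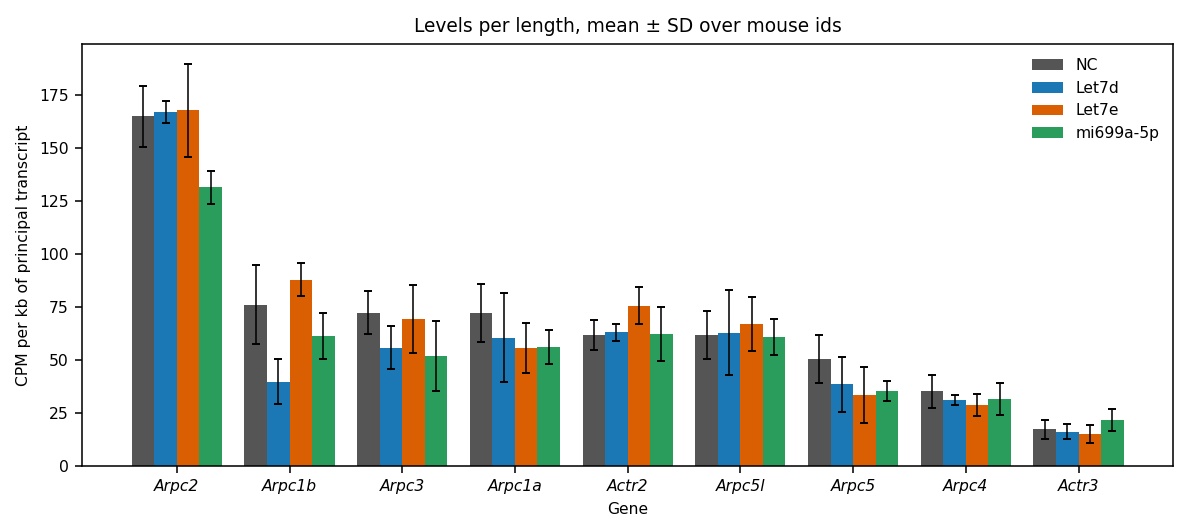
Levels of the 9 subunit genes in CPM per kb of principal transcript, ordered by the NC mean, as bars of the group mean with SD over 3 or 4 mouse ids. Arpc2 stood highest and Actr3 lowest in all 4 groups, and Arpc1b had its lowest bar in Let7d.

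ARPC1 is the subunit with a propeller of WD repeats, and its genes lie side by side. On GRCm38, Arpc1a is at chr5:145083830-145108761 and Arpc1b at chr5:145114215-145130705, both on the plus strand, with 5453 bases and 0 whole genes between them. Arpc1b was measured at 269, 170 and 270 CPM in NC mouse ids 1 to 3 and at 85.5, 139 and 145 CPM in those of Let7d. It was at 277, 302, 268 and 244 CPM in Let7e mouse ids 1 to 4 and at 217, 162, 221 and 159 CPM in those of mi699a-5p. Every Let7d mouse id lay below every mouse id of the other groups, and every Let7e mouse id above every one of mi699a-5p. Let7e overlapped with NC, whose mouse id 2 was at the level of the lower mi699a-5p values.

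Because Arpc1b was chosen by its Let7d and Let7e values, every comparison below that uses either group carries that choice, and its p-values are no independent evidence. Relative to NC, the log2 fold change of Arpc1b in Let7d was -0.94 ± 0.26 (SE), which is 0.522 of the NC level. The edgeR quasi-likelihood test gave p = 0.00191 before and an adjusted p = 0.886 after Benjamini-Hochberg adjustment over all 7886 genes, so the difference did not pass. DESeq2 gave -0.94 with an adjusted p = 0.0987, the lowest of any alternative. With every cell thinned to 1575609 reads the value was -0.87, and in a fit with Y-linked expression as a term it was -1.17. The blastomere marker sum, whose mean was 6078 CPM in Let7d and 6909 CPM in NC, was also lower, and its part in the result was not tested. Against mi699a-5p, Let7d gave -0.62 ± 0.24 (edgeR, p = 0.0194, adjusted p = 0.948). Arpc1b in Let7e gave 0.21 ± 0.24 against NC (edgeR, adjusted p = 0.999) and 0.52 ± 0.22 against mi699a-5p (edgeR, p = 0.0306, adjusted p = 0.688). In mi699a-5p against NC, the comparison that shares no mouse id with the contrast that chose the gene, it was -0.31 ± 0.24 (edgeR, adjusted p = 0.953). In Let7e against Let7d, which chose the gene, the log2 fold change was 1.15 ± 0.25, given as a description. The sign of every Arpc1b value was the same in all alternatives tried and with each mouse id left out.

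Part of Arpc1b cannot be separated from its neighbour. Of the 3105 bases of its principal transcript, 931 overlap exons of Pdap1, which lies on the opposite strand, and whether strand was used in counting is not given in the sources used here. Pdap1 was at 104 ± 11.2 CPM in NC (SD, n = 3), 76.8 ± 11.7 in Let7d (n = 3), 79.8 ± 14.3 in Let7e (n = 4) and 90.8 ± 36.2 in mi699a-5p (n = 4). Its log2 fold change was -0.44 ± 0.32 in Let7d against NC (edgeR, adjusted p = 1.0) and 0.05 in Let7e against Let7d. The Let7d mouse ids, at 63.5 to 84.9 CPM of Pdap1, all lay below those of NC, at 96.2 to 117 CPM. In that comparison 12.0% of all genes were free of overlap. The part of Pdap1 reads in the Arpc1b values was not tested.

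**Figure D2:**
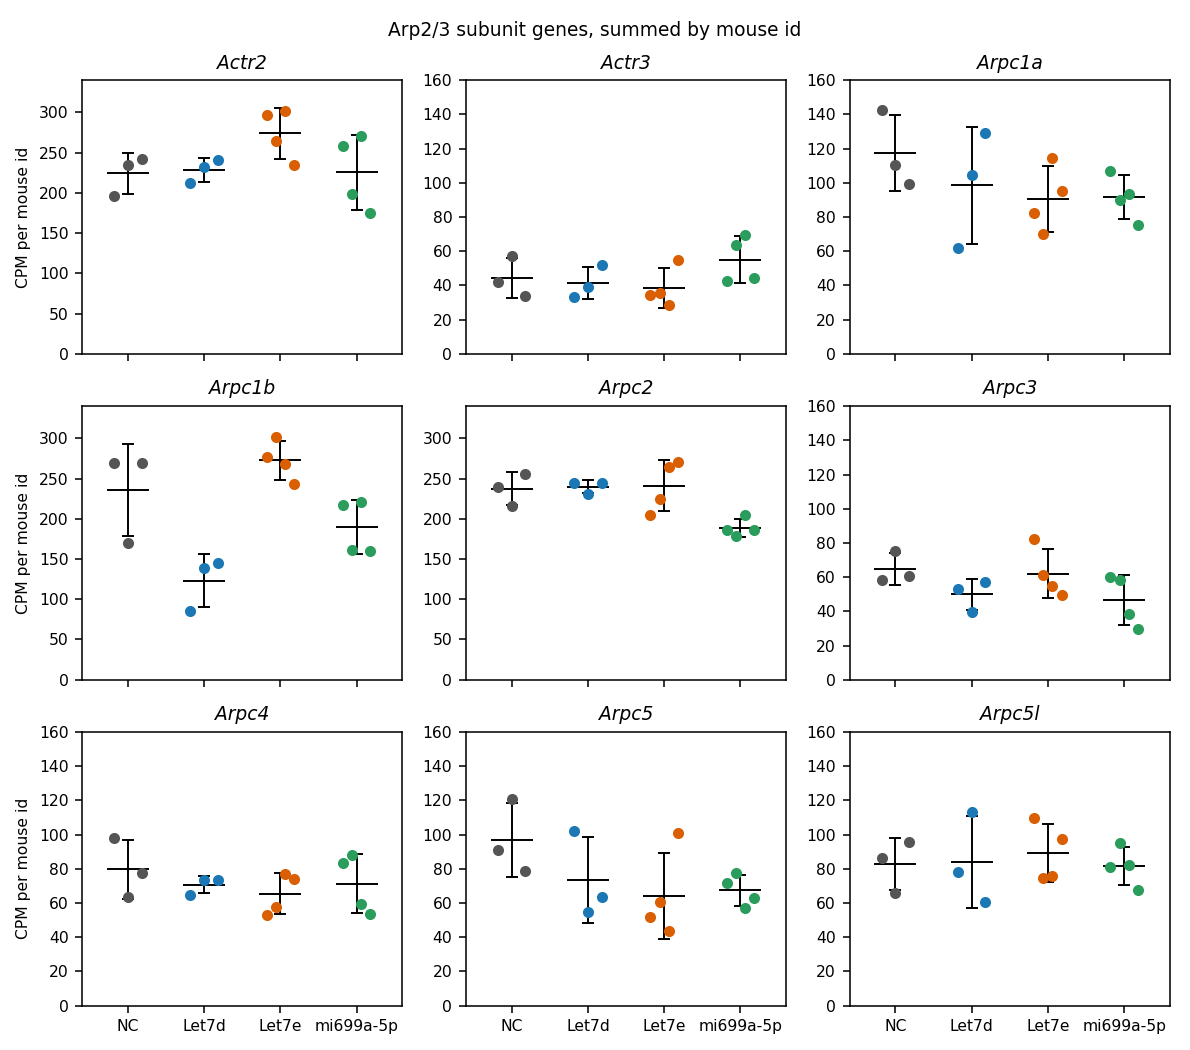
CPM of each subunit gene in each of the 14 mouse ids (points), with the group mean and SD (black), by injected material. Actr2, Arpc1b and Arpc2 share one axis range and the other genes a narrower one. The Let7d points of Arpc1b lie between 85.5 and 145 CPM, below the points of the other groups, while for most other genes the groups overlap.

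Arpc1a, which encodes the alternative ARPC1 subunit, was at 142, 110 and 99.6 CPM in NC and at 61.6, 104 and 129 CPM in Let7d. In Let7e it was at 82.4, 69.9, 115 and 95.5 CPM and in mi699a-5p at 107, 90.2, 93.7 and 75.6 CPM. The groups overlapped in every comparison. Its log2 fold change in Let7d against NC was -0.25 ± 0.30 (edgeR, adjusted p = 1.0) and in Let7e against NC -0.37 ± 0.28 (edgeR, adjusted p = 0.999). As a share of the summed CPM per kb of both genes, Arpc1b was 51.1% ± 7.08 in NC (SD, n = 3), 40.1% ± 2.71 in Let7d (n = 3), 61.4% ± 6.5 in Let7e (n = 4) and 52.0% ± 2.84 in mi699a-5p (n = 4). The Let7d values, 37.1% to 42.2%, lay below all others, and the lowest Let7e value was 55.1%. These shares contain the Arpc1b values that chose the gene and are given without a test.

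**Figure D3:**
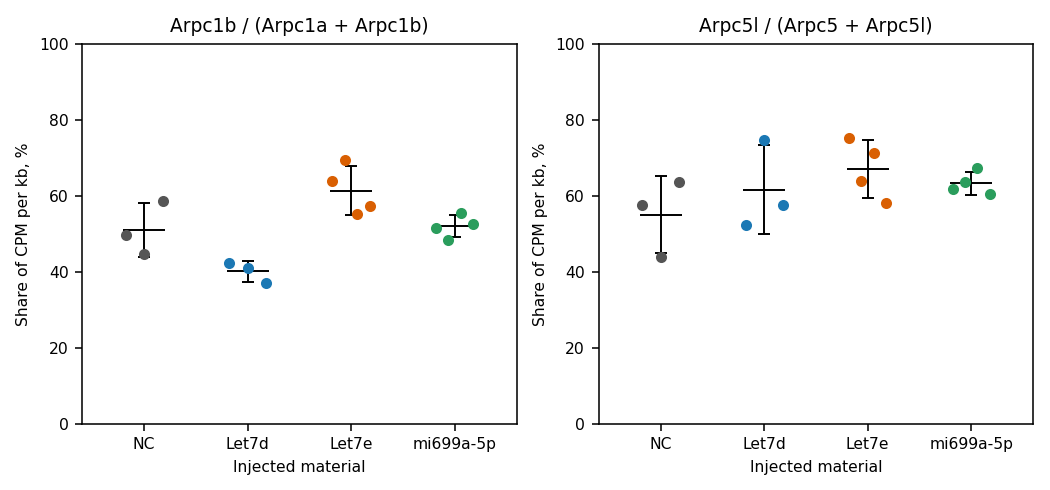
Share of Arpc1b in the summed CPM per kb of Arpc1a and Arpc1b (left) and of Arpc5l in that of Arpc5 and Arpc5l (right), one point per mouse id with the group mean and SD. The Let7d points of Arpc1b lie between 37.1% and 42.2%, and those of Arpc5l between 52.3% and 74.8%, across the range of the other groups.

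In the single blastomeres, where CPM is taken without TMM factors, Arpc1b was read in all 81 cells, at 15.8 to 516 CPM with a median of 192 CPM. Above that median lay 11 of 22 NC cells, 3 of 18 Let7d cells, 17 of 20 Let7e cells and 9 of 21 mi699a-5p cells. Cells of 1 mouse id share their source, so these counts are a description. The highest Let7d cell was at 239 CPM, against 516 CPM in NC, 470 CPM in Let7e and 386 CPM in mi699a-5p. Within NC mouse id 3 the median cell was at 139 CPM while the summed value was 270 CPM, and its cells ranged from 106 to 516 CPM. With every cell given the same weight (limma on the mean log2 CPM of the cells of a mouse id), Arpc1b in Let7d against NC was -0.70 ± 0.30 (limma, adjusted p = 0.853). The coefficient of variation of Arpc1b between cells of a mouse id had a median of 0.45 and ranged from 0.171 to 0.833.

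**Figure D4:**
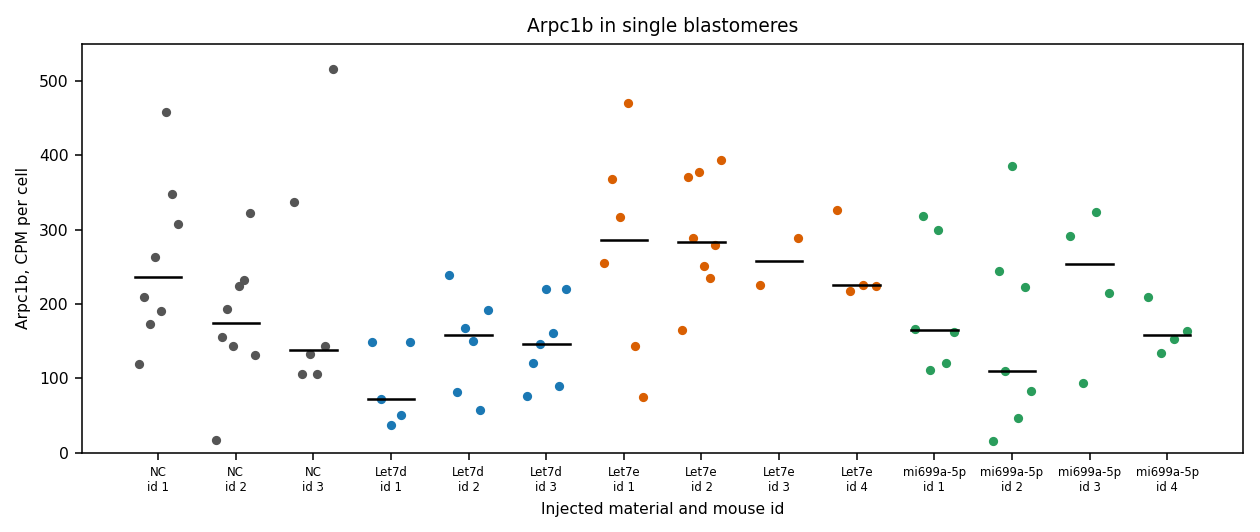
Arpc1b in CPM in each of the 81 blastomeres (points), by injected material and mouse id, with the median of each mouse id (black line). The medians of the Let7d mouse ids are 72.4, 159 and 146 CPM and those of the Let7e mouse ids 287, 284, 257 and 225 CPM, with wide scatter between cells of 1 mouse id.

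Actr2, which encodes Arp2, lies at chr11:20062304-20112913 and Actr3, which encodes Arp3, at chr1:125392905-125435727, both on the minus strand. Actr2 was at 196, 235 and 243 CPM in NC, 212, 232 and 241 CPM in Let7d, 296, 264, 302 and 234 CPM in Let7e and 258, 198, 271 and 175 CPM in mi699a-5p. In Let7e 3 of 4 mouse ids were above every NC mouse id. The Let7d values lay within the range of NC, and those of mi699a-5p lay on both sides of it. Its log2 fold change in Let7e was 0.29 ± 0.21 against NC (edgeR, p = 0.178, adjusted p = 0.999) and 0.28 ± 0.19 against mi699a-5p (edgeR, adjusted p = 0.817). Actr3 ranged from 34.0 to 57.0 CPM in NC, from 33.5 to 51.7 CPM in Let7d, from 28.6 to 55.0 CPM in Let7e and from 42.7 to 69.5 CPM in mi699a-5p. It varied strongly between cells: 4 of 81 cells had 0 reads, the highest cell was at 168 CPM, and the median coefficient of variation was 0.691. Its largest difference in size among the tested comparisons was -0.52 ± 0.31 in Let7e against mi699a-5p (edgeR, adjusted p = 0.788).

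Arpc2 and Arpc4 encode the core pair and lie at chr1:74236084-74268209 and chr6:113378115-113390448, both on the plus strand. Arpc2 was at 240, 215 and 256 CPM in NC, 245, 231 and 244 CPM in Let7d, 205, 225, 264 and 271 CPM in Let7e and 186, 179, 205 and 186 CPM in mi699a-5p. All mi699a-5p mouse ids were below all of NC and Let7d, and they met the lowest Let7e value. The log2 fold change was -0.33 ± 0.18 in mi699a-5p against NC (edgeR, p = 0.0917, adjusted p = 0.901). Against mi699a-5p it was 0.35 ± 0.18 in Let7d (edgeR, p = 0.0763, adjusted p = 0.984) and 0.35 ± 0.17 in Let7e (edgeR, p = 0.0546, adjusted p = 0.723). It was the steadiest of the 9 genes between cells, with a median coefficient of variation of 0.252. Arpc4 ranged from 63.5 to 98.0 CPM in NC, 64.8 to 73.7 CPM in Let7d, 52.9 to 76.9 CPM in Let7e and 53.8 to 88.4 CPM in mi699a-5p, so the groups overlapped. Of the 2270 bases of its principal transcript, 283 are shared with exons of Ttll3 on the same strand, a gene at 13.1 CPM or less in the mean of each group.

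Arpc3 and Arpc5 complete the assembly, and Arpc5l is the alternative to Arpc5. They lie on the plus strand at chr5:122391878-122414184 (Arpc3), chr1:152766542-152775597 (Arpc5) and chr2:39005348-39015877 (Arpc5l). Arpc3 was at 58.3, 75.3 and 60.8 CPM in NC and at 53.1, 39.8 and 57.3 CPM in Let7d, without overlap. It reached 49.7 to 82.5 CPM in Let7e and 29.9 to 60.0 CPM in mi699a-5p. Its log2 fold change was -0.37 ± 0.33 in Let7d against NC (edgeR, adjusted p = 1.0) and -0.47 ± 0.31 in mi699a-5p against NC (edgeR, adjusted p = 0.924). Arpc5 was at 90.8, 121 and 78.6 CPM in NC, 102, 54.6 and 63.7 CPM in Let7d, 51.7, 60.3, 43.8 and 101 CPM in Let7e and 72.0, 77.6, 57.0 and 62.9 CPM in mi699a-5p. Every mi699a-5p value and 3 of the 4 Let7e values were lower than all NC values. The log2 fold change of Arpc5 against NC was -0.59 ± 0.31 in Let7e (edgeR, p = 0.0761, adjusted p = 0.999), -0.52 ± 0.31 in mi699a-5p (edgeR, p = 0.115, adjusted p = 0.904) and -0.40 ± 0.34 in Let7d (edgeR, adjusted p = 1.0). Arpc5l ranged from 66.0 to 95.9 CPM in NC, 60.7 to 113 CPM in Let7d, 74.6 to 110 CPM in Let7e and 67.5 to 94.9 CPM in mi699a-5p, overlapping throughout. Arpc5l made up 55.0% ± 10.1 of the summed CPM per kb of Arpc5 and Arpc5l in NC (SD, n = 3), 61.6% ± 11.8 in Let7d (n = 3), 67.1% ± 7.66 in Let7e (n = 4) and 63.3% ± 3.0 in mi699a-5p (n = 4), and the groups overlapped.

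Counted over the 9 genes, none passed an adjusted p of 0.05 in any of the 5 tested comparisons, by edgeR or by DESeq2. In Let7d against NC, DESeq2 gave no adjusted p for Actr3, Arpc3, Arpc4, Arpc5 and Arpc5l, which count here as not passing. The comparisons share groups with each other and are not independent. Wherever Arpc1b is counted in a Let7d or Let7e comparison, the mouse ids are those whose values chose it, so the count is partly fixed by the choice and nothing is read from it against the share of all genes. In Let7d against NC, where 0.0127% of all genes passed, the members stood 3 above and 6 below 0, with a median log2 fold change of -0.17 beside 0.01 over all genes. At an unadjusted p under 0.05 by edgeR stood 1 member, Arpc1b, where 4.69% of all genes did, and the groups did not overlap in CPM for 2 members, Arpc1b and Arpc3, against 12.0% of all genes. In Let7e against NC, where 0% of all genes passed the adjusted and 4.02% the unadjusted threshold, 0 members passed either and 0 were free of overlap (5.62% of all genes). The median of the members was -0.06 beside 0.02 over all genes, with 4 above and 5 below 0.

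In mi699a-5p against NC, 0% of all genes passed the adjusted and 5.5% the unadjusted threshold, and 0 members passed either. Here 7 of the 9 genes were below 0, with a median of -0.31 beside 0.04 over all genes, and Arpc2 and Arpc5 were free of overlap (8.38% of all genes). In Let7d against mi699a-5p, 0% of all genes passed the adjusted threshold. At the unadjusted one stood 1 member, Arpc1b (5.01% of all genes), and 2 were free of overlap, Arpc1b below and Arpc2 above mi699a-5p (6.77% of all genes). The median of the members was 0.05 beside -0.02 over all genes. In Let7e against mi699a-5p, 0% of all genes passed the adjusted threshold, and Arpc1b alone among the members stood at the unadjusted one (7.06% of all genes) and was free of overlap (4.16% of all genes). The median was 0.13 beside -0.03, with 5 above and 4 below 0. In Let7e against Let7d only Arpc1b was free of overlap, where 6.07% of all genes were, and nothing is read from that count.

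**Figure D5:**
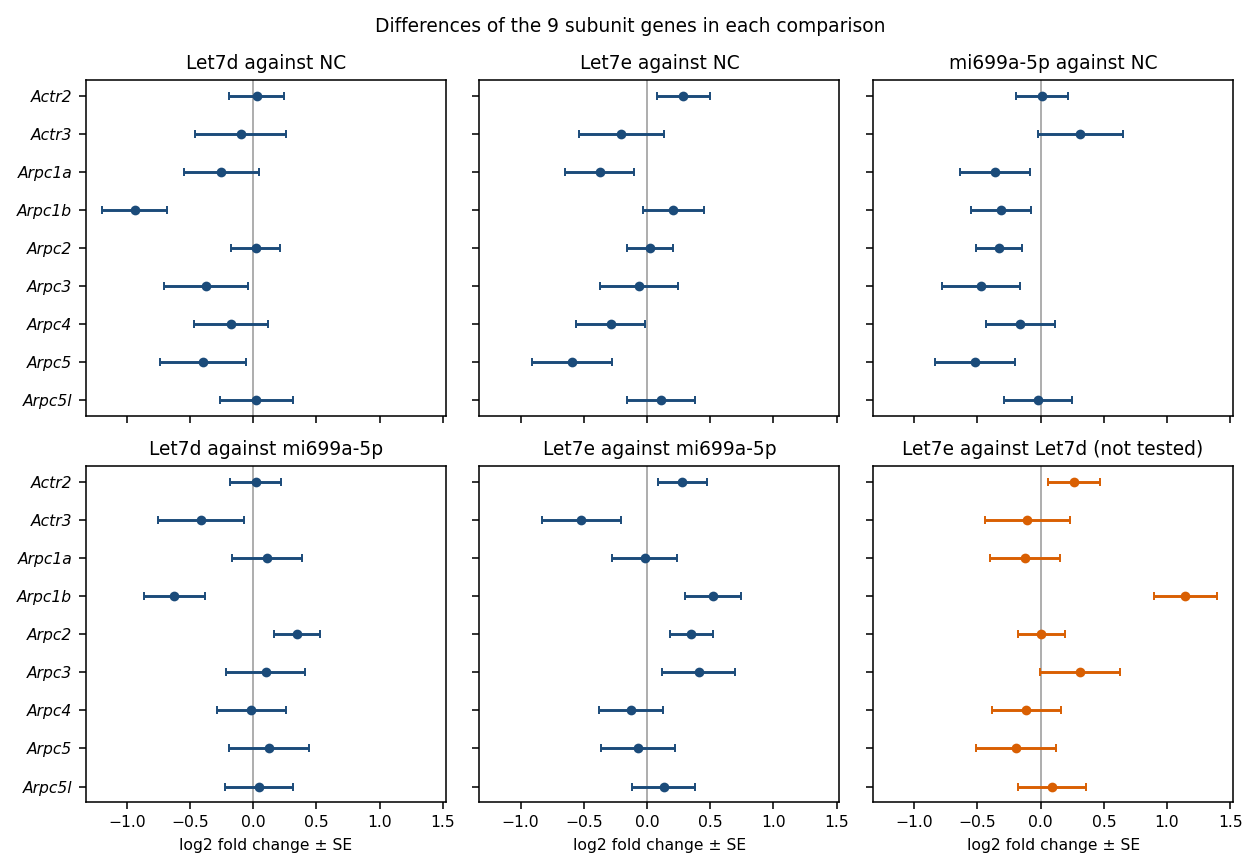
Log2 fold change with its SE (edgeR) of the 9 subunit genes, one panel per comparison. Arpc1b lies at -0.94 in Let7d against NC and at 0.52 in Let7e against mi699a-5p. The contrast that chose it, Let7e against Let7d, is drawn in another colour and was not tested.

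Summed over the 9 genes, the level was 1112 to 1222 CPM in NC, 936 to 1066 CPM in Let7d, 1150 to 1228 CPM in Let7e and 854 to 1108 CPM in mi699a-5p. Without Arpc1b the sums were 943 to 954 CPM in NC, 850 to 921 CPM in Let7d, 848 to 977 CPM in Let7e and 695 to 890 CPM in mi699a-5p. Let7d and mi699a-5p thus lay below NC also in the sum of the other 8 genes, while Let7e spanned NC. Means without Arpc1b were 947 ± 5.7 CPM in NC (SD, n = 3), 887 ± 35.6 in Let7d (n = 3), 925 ± 57.6 in Let7e (n = 4) and 828 ± 90.4 in mi699a-5p (n = 4). The lack of overlap thus depends on the narrow spread of the 3 NC sums. These sums are descriptions and were not tested. Across the 14 mouse ids the 36 pairs of members had a median Pearson r of 0.12 in log2 CPM, from -0.51 for Actr2 with Arpc5 to 0.65 for Arpc1a with Arpc4, and 26 pairs were above 0. Across the 81 cells, after removing the mean of each mouse id, the median r was 0.02, from -0.30 for Actr2 with Arpc1a to 0.42 for Actr3 with Arpc2. The points share library depth and normalization.

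Among 7274 genes with a mean of at least 10 CPM, those whose log2 CPM followed Arpc1b most closely over the 14 mouse ids were Smcr8 (r = 0.91), Atp6v0b (0.83), Coq7 (0.82), Nol7 (0.82) and Immp1l (0.82). As r was taken with the group means left in, it follows from this choice that they resemble Arpc1b in being lowest in Let7d. Atp6v0b, a subunit of the vacuolar proton pump, was at 75.9 CPM in the Let7d mean and at 141 CPM in NC, and Coq7, an enzyme of ubiquinone synthesis, at 45.8 CPM and 77.4 CPM. The genes that ran most against it were the X-linked Dkc1 (r = -0.78), which encodes the pseudouridine synthase dyskerin, and the copper transporter gene Slc31a1 (r = -0.75). Dkc1 was at 518 CPM in the Let7d mean and 362 CPM in NC. Of the other subunit genes Actr2 came nearest, at place 400, and Arpc1a was at place 1452.

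The activators of the complex gave no adjusted call in any tested comparison, where at most 0.0127% of all genes did. At an unadjusted p under 0.05 by edgeR stood 4.02% to 7.06% of all genes, depending on the comparison. Nothing is therefore read from the small counts in this list and the following ones. Of 9 genes of the WAVE complex, which activates Arp2/3 below the GTPase Rac, 6 were measured. Only Wasf2, which encodes the WAVE2 activator itself, stood at an unadjusted p under 0.05, at 78.5 CPM in Let7e and 53.7 CPM in mi699a-5p (log2 fold change 0.55 ± 0.25, edgeR, p = 0.0399, adjusted p = 0.697). In Let7d against NC the smallest p values belonged to Nckap1 (0.63 ± 0.38) and Cyfip1 (0.85 ± 0.54), both of the WAVE scaffold, and in Let7e against NC to Cyfip1 (0.94 ± 0.51) and the small subunit gene Brk1 (-0.46 ± 0.26). Of 14 WASP, WASH and other activators 9 were measured. The WASH complex, which drives branched actin on endosomes, gave Washc2 in Let7d against NC (0.61 ± 0.28, edgeR, p = 0.041, adjusted p = 1.0) and in mi699a-5p against NC (0.64 ± 0.26, p = 0.0265, adjusted p = 0.866). Washc5 was at 37.2 CPM in NC, 70.6 CPM in Let7e (0.93 ± 0.36, edgeR, p = 0.0201, adjusted p = 0.999) and 72.8 CPM in mi699a-5p (0.97 ± 0.36, p = 0.0158, adjusted p = 0.858). Washc2 in Let7e against mi699a-5p was at 93.9 CPM and 138 CPM (-0.55 ± 0.24, edgeR, p = 0.0347, adjusted p = 0.697). Cttn, whose product cortactin steadies branches, gave 0.48 ± 0.23 in Let7d against NC (edgeR, p = 0.0541, adjusted p = 1.0).

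Of 14 upstream GTPases and adaptors 12 were measured, and none passed adjustment. At an unadjusted p under 0.05 by edgeR stood 1 of the 12 in Let7d against NC (4.69% of all genes). It was also 1 in mi699a-5p against NC (5.5%) and 1 in Let7d against mi699a-5p (5.01%). Iqgap1, a scaffold for Rac and Cdc42, had the smallest p of these in both Let7d comparisons. It was at 133 CPM in Let7d, 73.1 CPM in NC (0.86 ± 0.31, edgeR, p = 0.0121, adjusted p = 0.986) and 63.8 CPM in mi699a-5p (1.06 ± 0.28, p = 0.00162, adjusted p = 0.659). Baiap2, which links Rac to WAVE, gave 1.11 ± 0.43 in mi699a-5p against NC (edgeR, p = 0.0193, adjusted p = 0.858). Of 10 inhibitors and debranchers of Arp2/3, 5 were measured and 0 stood at an unadjusted p under 0.05, where 4.02% to 7.06% of all genes did. Gmfb, whose product takes branches apart, came closest with 0.73 ± 0.36 in Let7d against NC (edgeR, p = 0.0558, adjusted p = 1.0).

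Nucleators other than Arp2/3 build unbranched filaments, and 6 of the 17 listed were measured. All 6 were above 0 in mi699a-5p against NC, with a median log2 fold change of 0.65 beside 0.04 over all genes. All 6 were below 0 in Let7d and in Let7e against mi699a-5p, with medians of -0.67 and -0.54 beside -0.02 and -0.03 over all genes. These 3 comparisons share the mi699a-5p mouse ids, and none of the genes passed adjustment. At an unadjusted p under 0.05 by edgeR stood 1 of the 6 in each, where 5.5%, 5.01% and 7.06% of all genes did. The formin gene Daam1 was the one at an unadjusted p under 0.05, at 36.6 CPM in mi699a-5p, 8.79 CPM in NC (2.06 ± 0.73, edgeR, p = 0.0115, adjusted p = 0.858), 5.52 CPM in Let7d (-2.73 ± 0.76, p = 0.002, adjusted p = 0.659) and 11.2 CPM in Let7e (-1.71 ± 0.65, p = 0.0171, adjusted p = 0.653). Diaph3, another formin gene, gave 0.65 ± 0.34 in mi699a-5p against NC (edgeR, adjusted p = 0.871).

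Of 30 genes for actin and its monomer and filament proteins 22 were measured, with 0 adjusted calls. At an unadjusted p under 0.05 stood 1 of the 22, below 0, in Let7d against NC (4.69% of all genes) and 1, below 0, in Let7e against NC (4.02% of all genes). In mi699a-5p against NC 2 stood above and 3 below 0 (5.5% of all genes). In Let7d against mi699a-5p 1 stood above and 1 below 0 (5.01% of all genes), and in Let7e against mi699a-5p 1 above and 2 below (7.06% of all genes). Capzb, a subunit gene of the capping protein that closes filament ends, had a negative log2 fold change against NC with each injected microRNA. It was at 150.0 CPM in NC, 95.3 CPM in Let7d (-0.65 ± 0.31, edgeR, p = 0.0497, adjusted p = 1.0), 83.0 CPM in Let7e (-0.85 ± 0.29, p = 0.00835, adjusted p = 0.999) and 89.7 CPM in mi699a-5p (-0.74 ± 0.29, p = 0.019, adjusted p = 0.858). The 3 comparisons share the NC mouse ids. Tpm3, a tropomyosin gene, was at 495 CPM in Let7d and 311 CPM in mi699a-5p (0.67 ± 0.18, edgeR, p = 0.00178, adjusted p = 0.659). Twf1, which encodes a monomer-binding twinfilin, was at 241 CPM in mi699a-5p and 144 CPM in NC (0.74 ± 0.28, edgeR, p = 0.0149, adjusted p = 0.858). It was at 161 CPM in Let7d (-0.58 ± 0.27 against mi699a-5p, edgeR, p = 0.0471, adjusted p = 0.971) and 164 CPM in Let7e (-0.55 ± 0.25, p = 0.0416, adjusted p = 0.698). Capza2, of the same capping protein as Capzb, was at 222 CPM in Let7e and 306 CPM in mi699a-5p (-0.46 ± 0.20, edgeR, p = 0.0326, adjusted p = 0.688). Of 11 actin-related proteins outside Arp2/3, such as those of dynactin and of chromatin remodellers, 7 were measured. Among these 7, 0 stood at an unadjusted p under 0.05, where 4.02% to 7.06% of all genes did. The smallest p there belonged to Actr5 in Let7e against mi699a-5p (0.61 ± 0.38, edgeR, p = 0.125, adjusted p = 0.812).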

How the data were processed

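Single 8-cell blastomeres were sequenced by Smart-seq2. The deposited values are whole-number read counts per gene and cell made by the authors. STAR and GRCm38.p6 appear, without versions or roles, per the submitters' processing notes, and the counting program, strand use and count filter are not given in the sources used here. Deposited RPKM values were not used, because implied gene lengths differed between cells.

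For each mouse id the counts of its cells were added up, and the sums were fitted in 1 model of 4 groups with edgeR 4.0.16 in R 4.3.3 (TMM, filterByExpr, which removed 0 genes, quasi-likelihood F test, two-sided, Benjamini-Hochberg over 7886 genes at 0.05, 10 residual degrees of freedom). The test was first checked on simulated data with planted changes larger than any difference of the subunit genes. That check does not cover differences of their size. Log2 CPM used a prior count of 2. The SE given with an edgeR log2 fold change was derived from the test. It is the absolute log2 fold change divided by the square root of the F statistic. DESeq2 1.42.0, limma 3.58.1 and the other alternatives are given in the closing section. Symbols, positions and transcripts came from GENCODE M21 (GRCm38), and levels per length used the APPRIS principal transcript.

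The subunit genes and the actin lists were chosen with earlier results of these data known. Named beside the members were the 2 genes of smallest edgeR p per list and comparison, of which all at an unadjusted p under 0.05 and some others are printed, and the 5 genes most and 2 least correlated with Arpc1b.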

Additional observations from a re-analysis of the deposited data

How the results depend on the processing

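The count of subunit genes past an adjusted p of 0.05 was 0 in each of the 5 tested comparisons under every alternative: RLE size factors, DESeq2, no filter on low counts, a mean of at least 10 CPM, cells thinned to one depth, limma on cell means, Y-linked expression as a covariate, the repeated library used once, the replicate block and each mouse id left out. A gene without an adjusted p, as for Actr3, Arpc3, Arpc4, Arpc5 and Arpc5l by DESeq2 in Let7d against NC, counts as not passing. Arpc1b kept its sign throughout. Its log2 fold change in Let7d against NC ranged from -1.17 to -0.70 over these settings and from -1.13 to -0.73 with a mouse id left out. Without NC replicate 2 its value in Let7e against NC was 0.02. Limma on cell means shifted the median over all genes to 0.11 in Let7d against NC and to 0.10 in Let7d against mi699a-5p.

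Of 720 alternative values for the 45 tested fold changes, 657 kept their direction and 63 changed it, in 21 fold changes of at most 0.41 in size, and the cause was not tested. RLE size factors gave -0.010 for Actr2 in mi699a-5p against NC, 0.0019 for Arpc4 in Let7d against mi699a-5p and 0.0018 for Arpc1a in Let7e against mi699a-5p, and DESeq2 gave -0.0105, 0.0013 and 0.0011 for them. The filter at 10 CPM gave -0.0084 for this Actr2 value and 0.012 for this Arpc4 value, and thinning gave 0.0103 for the latter. Limma on cell means gave 0.35 for Actr3 and 0.057 for Arpc4 in Let7d against NC, 0.14 for Arpc5l in mi699a-5p against NC, and 0.0077 for Actr3, 0.077 for Arpc4, -0.0049 for Arpc5l and 0.001 for Brk1, a gene of the WAVE list, in Let7d against mi699a-5p. The Y-linked covariate gave -0.054 for Actr2 in Let7d against NC, -0.034 in mi699a-5p against NC and -0.02 in Let7d against mi699a-5p, where it gave -0.075 for Arpc1a, and 0.13 for Arpc1a in Let7e against mi699a-5p.

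With a mouse id left out, the fold changes that crossed 0 ranged as follows. In Let7d against NC, Actr2 ran from -0.063 to 0.086, Actr3 from -0.28 to 0.12, Arpc2 from -0.047 to 0.077, Arpc4 from -0.31 to 0.0022 and Arpc5l from -0.25 to 0.22. In Let7e against NC, Actr3 ran from -0.43 to 0.019, Arpc2 from -0.041 to 0.095, Arpc3 from -0.23 to 0.059 and Arpc5l from -0.028 to 0.23. In mi699a-5p against NC, Actr2 ran from -0.14 to 0.094, Arpc4 from -0.30 to 0.016 and Arpc5l from -0.16 to 0.098. In Let7d against mi699a-5p, Actr2 ran from -0.059 to 0.16, Arpc1a from -0.11 to 0.35, Arpc3 from -0.035 to 0.26, Arpc4 from -0.099 to 0.11, Arpc5 from -0.19 to 0.32 and Arpc5l from -0.21 to 0.26. In Let7e against mi699a-5p, Arpc1a ran from -0.15 to 0.090 and Arpc5 from -0.37 to 0.072.

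The replicate block, which treats the number in the mouse id as shared between groups, left 0 subunit genes past the threshold in every tested comparison and gave -0.93 for Arpc1b in Let7d against NC. It gave -0.0044 for Arpc2 and 0.061 for Arpc3 in Let7e against NC and -0.059 for Actr2 in Let7d against mi699a-5p. Over all genes it moved the call in Let7d against NC from 1 to 0, against 2 by DESeq2. The deviations of 19 pairs with the same number had correlations of -0.126 to 0.128 (median 0.018), beside a median of -0.002 in 54 other pairs. Between NC and Let7d the same-number pairs gave 0.081, 0.059 and 0.098, and the other pairs -0.062 to -0.003. Between Let7d and mi699a-5p the same-number pairs gave -0.092, -0.057 and -0.018. Correlations this weak, with signs that differ between groups, cannot decide whether the numbers pair the samples.

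Only 3 or 4 mouse ids stood behind each group, and reads without molecular identifiers include amplification copies.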
